A study of Homo sapiens with 22 samples.

Results

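Collagens, laminins, fibronectin and integrins form the scaffold around cells and the receptors that hold cells to it. The genes described here are the protein-coding genes named as collagen alpha chains, laminin alpha, beta or gamma chains and integrin alpha or beta chains, with FN1 added. They number 82 of the 60669 genes listed: 11 fibrillar collagens, 33 other collagens, 12 laminin chains, 17 integrin alpha chains, 8 integrin beta chains and FN1. Values are FPKM, fragments scaled to gene length and library total, so that levels of different genes can be set side by side. A member is reported in a table where at least 2 libraries had it at 1 FPKM or more. That left 42 members in the knockdown table, 43 in the DMSO table and 40 of the 43 listed in the CTRL table, or 45 in at least 1 of them. The highest value of any member left out was 1.32, 0.829 and 2.35 FPKM in the 3 tables. Among those left out of the first 2 tables were the leukocyte integrin chains ITGAL, ITGAM, ITGAX, ITGAD, ITGA4 and ITGB7, and the connective tissue collagen COL3A1. Of such integrin chains ITGB2 and ITGAE were kept, at means of 18.9 and 26.3 FPKM in B5 and 10.8 and 28.8 in DMSO.

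The cells were MDA-MB-231, a long-established line from human breast cancer that lacks oestrogen receptor, and 22 RNA-seq libraries fell into 11 groups of 2. The knockdown table compared B5 cells with shM3 cells and with shM3 cells that received METTL3-WT (shM3_WT) or METTL3-CD (shM3_CD), at 2 to 3 months. The DMSO table compared DMSO with JQ1, Molib and I-BET151, and the CTRL table compared CTRL with JQ1 and with MW_JQ1, a group also given JQ1. Every compound was used at 0.5 µM for 3 days. All groups carry the genotype label WT and grew in DMEM with serum. The labels do not explain B5, CD or MW, do not say whether a line is 1 clone, and give no sign that replicates were grown separately. The p-values therefore cover only the spread within these pairs, which may be technical. METTL3 is the catalytic subunit of the complex that writes m6A on RNA, and BET proteins are readers of acetylated histones. The series title sets the inhibition of BET proteins beside that complex.

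Collagens are trimers of alpha chains. Fibrillar types bear load, type IV forms the sheet of basement membranes, type VI forms beaded filaments, type VII forms anchoring fibrils, and types XIII and XVII span the membrane. Laminins are crosses of an alpha, a beta and a gamma chain; LAMA3 and LAMB3 belong to the laminin that anchors epithelia, and LAMA5, LAMB1, LAMB2 and LAMC1 enter the more widespread forms. Fibronectin is assembled into fibrils by its receptor, the pair of ITGA5 and ITGB1. To bind laminin, ITGA3 pairs with ITGB1 and ITGA6 with ITGB1 or ITGB4, while ITGA1, ITGA2 and ITGA10 bind collagen. MDA-MB-231 is a mesenchymal-like line that spreads on such matrices.

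The type IV collagen genes lie in head-to-head pairs, and the members of a pair did not always move alike, so the start regions of COL4A1 with COL4A2 and of COL4A5 with COL4A6 are shown. Each window holds 250 bases before to 50 after a gene start (RefSeq, GRCh38.p14), read on the gene's own strand. The windows lie at chr13:110307108-110307407 (COL4A1, minus strand), chr13:110307034-110307333 (COL4A2, plus strand), chrX:108439588-108439887 (COL4A5, plus strand) and chrX:108439409-108439708 (COL4A6, minus strand, 1 of 2 windows of that gene). Capitals mark the bases that a window shares with its partner, 226 in the COL4A1 and COL4A2 pair, whose starts lie 127 bases apart, and 121 in the COL4A5 and COL4A6 pair, whose starts lie 380 apart.
COL4A1: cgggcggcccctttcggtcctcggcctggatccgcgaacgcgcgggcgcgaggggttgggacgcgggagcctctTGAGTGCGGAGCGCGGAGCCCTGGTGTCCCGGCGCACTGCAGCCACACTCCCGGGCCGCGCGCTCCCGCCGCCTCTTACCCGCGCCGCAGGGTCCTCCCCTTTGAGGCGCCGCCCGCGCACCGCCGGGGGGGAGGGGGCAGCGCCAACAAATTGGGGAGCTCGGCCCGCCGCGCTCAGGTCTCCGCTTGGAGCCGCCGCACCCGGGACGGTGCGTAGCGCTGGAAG
COL4A2: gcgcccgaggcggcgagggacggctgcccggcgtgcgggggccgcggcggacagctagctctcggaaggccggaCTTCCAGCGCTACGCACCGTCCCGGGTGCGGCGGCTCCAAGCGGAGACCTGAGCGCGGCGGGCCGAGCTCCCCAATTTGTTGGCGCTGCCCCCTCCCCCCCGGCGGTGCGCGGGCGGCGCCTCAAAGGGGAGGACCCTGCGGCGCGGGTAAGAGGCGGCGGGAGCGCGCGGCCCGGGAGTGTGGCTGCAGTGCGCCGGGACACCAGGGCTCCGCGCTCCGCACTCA
COL4A5: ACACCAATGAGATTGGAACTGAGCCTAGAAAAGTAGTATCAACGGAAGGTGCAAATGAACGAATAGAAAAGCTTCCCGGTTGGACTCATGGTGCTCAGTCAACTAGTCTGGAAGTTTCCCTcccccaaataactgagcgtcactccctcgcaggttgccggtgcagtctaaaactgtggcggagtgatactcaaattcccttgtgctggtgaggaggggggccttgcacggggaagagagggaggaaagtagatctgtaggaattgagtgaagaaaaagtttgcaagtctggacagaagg
COL4A6: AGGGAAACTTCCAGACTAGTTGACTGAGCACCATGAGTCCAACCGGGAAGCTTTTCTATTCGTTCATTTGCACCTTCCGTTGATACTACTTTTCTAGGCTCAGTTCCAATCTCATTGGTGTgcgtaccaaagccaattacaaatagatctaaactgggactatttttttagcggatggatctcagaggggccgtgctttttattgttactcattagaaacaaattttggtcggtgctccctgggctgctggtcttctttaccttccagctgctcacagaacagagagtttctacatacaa

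FN1 and ITGA5, the fibronectin gene and its receptor's alpha chain, moved in opposite directions in shM3 cells and the same way under JQ1. Their windows lie at chr2:215436019-215436318 and chr12:54419217-54419516, both on the minus strand. Capitals mark the cyclic AMP response element TGACGTCA, whose first base lies 183 bases before the FN1 start, and the AP-1 motif TGACTCA or its reverse TGAGTCA, whose first base lies 6 before the ITGA5 start.
FN1: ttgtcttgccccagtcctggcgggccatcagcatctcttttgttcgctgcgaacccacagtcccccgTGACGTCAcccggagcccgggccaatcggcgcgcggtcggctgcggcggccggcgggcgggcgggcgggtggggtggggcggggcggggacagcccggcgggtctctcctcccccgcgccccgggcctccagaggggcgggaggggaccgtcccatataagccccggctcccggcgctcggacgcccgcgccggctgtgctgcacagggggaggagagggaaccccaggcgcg
ITGA5: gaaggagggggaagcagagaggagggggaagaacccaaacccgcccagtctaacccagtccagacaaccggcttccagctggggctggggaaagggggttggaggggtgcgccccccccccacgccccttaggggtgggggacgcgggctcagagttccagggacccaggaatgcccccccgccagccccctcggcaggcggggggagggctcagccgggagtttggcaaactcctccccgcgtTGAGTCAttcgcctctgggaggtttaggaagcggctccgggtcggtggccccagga

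Both motifs were searched on both strands and do not overlap each other in these windows. Of 35116 RefSeq windows of this length, 4.95% held the AP-1 motif and 1.85% the cyclic AMP motif. A window was matched for 33 of the 45 reported members, and the AP-1 motif stood in those of ITGA5, LAMA3 and LAMB3 and the cyclic AMP motif in that of FN1. A match of letters is not a measured binding site.

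The targeted gene METTL3 was read first. B5 libraries had 20.1 and 23.8 FPKM of it and shM3 libraries 4.39 and 4.80, while METTL3-WT libraries had 312 and 311 and METTL3-CD libraries 277 and 270.5. In the knockdown and DMSO tables the libraries of a group correlated at 0.977 to 0.987 over log2(FPKM + 1) of the genes kept, and the steps between low values imply roughly 12700000 to 19300000 fragments per library. B5 replicate 2 listed PIDD1 at 8234197 FPKM, and its other genes summed to 423171. In the CTRL table the 2 CTRL libraries correlated at only 0.746 and the 2 JQ1 libraries at 0.777, against 0.986 for MW_JQ1, and METTL3 was 31.2 and 1.18 in CTRL, 11.8 and 0 in JQ1, and 212 and 234 in MW_JQ1. In the DMSO table HEXIM1, which BET inhibitors are known to raise, was 26.5 and 29.4 FPKM in DMSO, 73.8 and 76.7 in JQ1 and 72.9 and 69.6 in Molib, but 10.3 and 6.37 in the group labelled I-BET151. That group goes against its label by HEXIM1 (adjusted p = 0.00113) and is called by its label throughout, while the histone gene H2BC21, another known riser, was higher in all 3 compound groups. SERPINI1, of the same list, was 20.7 and 22.2 in JQ1 and 23.7 and 21.2 in Molib but 1.68 and 2.33 in the group labelled I-BET151, against 2.35 and 2.88 in DMSO. In the CTRL table HEXIM1 was 63.41 and 52.04 in CTRL, 85.28 and 76.97 in JQ1 and 46.43 and 55.05 in MW_JQ1. HEXIM1 was thus higher in JQ1 than in CTRL without overlap, while MW_JQ1, also given JQ1, overlapped CTRL. In that table H2BC21 was 135 and 116 in CTRL, 67.0 and 43.6 in JQ1 and 20.9 and 15.3 in MW_JQ1. H2BC21 thus moved against its direction in the DMSO table. SERPINI1 was listed at 0 in both CTRL libraries, at 13.2 and 27.8 in JQ1 and at 10.3 and 9.87 in MW_JQ1. MYC was 35.8 and 45.4 in CTRL, 14.4 and 35.5 in JQ1 and 6.55 and 6.35 in MW_JQ1. The JQ1 columns of the DMSO table were assigned by elimination, carry no number and are called a and b. The line's markers VIM, CD44, AXL, CAV1 and ANXA1 were present in every library, and the hormone receptor genes ESR1 and PGR were at or near 0 in the first 2 tables, but ERBB2 and EPCAM, also listed as low in this line, were at 24.6 to 39.9 and 1.08 to 10.9 FPKM there.

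In B5 cells the most abundant members were receptors and the laminin chains and matrix glycoprotein they bind. ITGB1 was at 321 ± 14.9 FPKM (SD, n = 2), LAMB3 at 258 ± 5.26, FN1 at 173 ± 6.96, ITGA3 at 161 ± 2.75 and COL6A1 at 136 ± 21.1. LAMB2, COL13A1, ITGB5, LAMA5 and ITGB4 followed, between 134 and 84.2. The ranges of ITGB1, LAMB3 and FN1 did not overlap, whereas those of COL6A1 and LAMB2 did. In DMSO cells the order began with LAMB3 at 255, ITGB1 at 237 and ITGA3 at 155, and FN1 stood sixth at 81.7 FPKM.

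**Figure D1:**
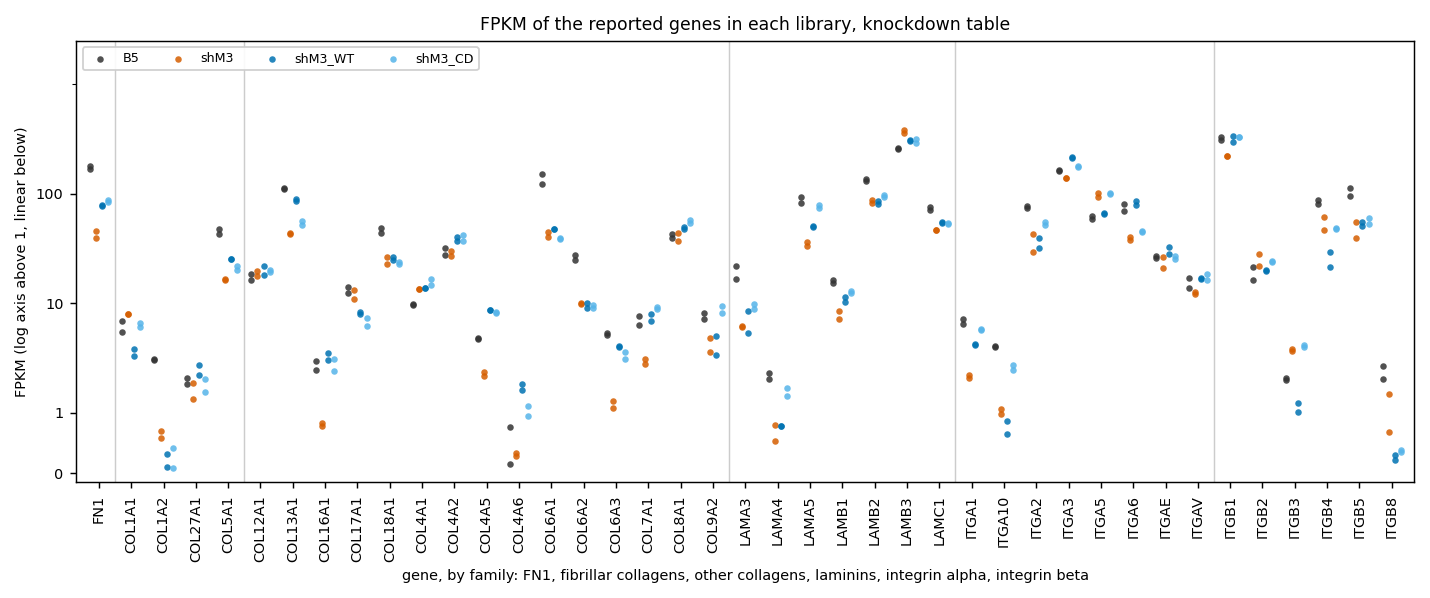
FPKM of 41 of the reported genes in each of the 8 libraries of the knockdown table, by family, on an axis that is logarithmic above 1 and linear below it. FN1 stands at 168 and 178 in B5 and at 39.6 and 45.2 in shM3, and most laminin chains drawn show the same order of these 2 groups, with LAMB3 reversed.

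In shM3 cells the matrix and its receptors were mostly lower than in B5 cells. Of 42 members tested with limma, 28 were lower and 4 higher at a Benjamini-Hochberg adjusted p under 0.05, where 19.9% of all 14638 genes were lower and 17.9% higher. The members' median difference in log2(FPKM + 1) was -0.78, and that of all genes was -0.00. Differences below are on this log2 scale, which understates changes of low genes, and a fold is the ratio of mean FPKM. In RNA from whole cultures, fewer cells of a kind and less RNA per cell cannot be told apart.

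FN1 had the deepest fall on the log2 scale. It was at 39.6 and 45.2 FPKM in shM3 against 168 and 178 in B5. Both shM3 libraries lay far below both B5 libraries, a 4.08-fold fall and a difference of -2.01 (SE 0.083, adjusted p = 2.53e-05).

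All 3 type VI chains expressed fell with it. COL6A1 was at 40.3 and 44.7 FPKM against 121 and 151 (3.21-fold lower), a difference of -1.65 (SE 0.11, adjusted p = 0.000102). COL6A3, the longest of these chains, was at 1.095 and 1.28 against 5.30 and 5.08 (4.37-fold lower), a difference of -1.50 (SE 0.12, adjusted p = 0.000172). In both genes the lower B5 library was above the higher shM3 library by more than the spread within either group. COL6A2, the neighbour of COL6A1 on chromosome 21, differed by -1.31 (SE 0.095, adjusted p = 0.000136). Of the 15 other collagens, those outside the fibrillar class, 9 fell and 1 rose, with a median of -0.83. The membrane collagen COL13A1 was at 43.1 and 43.6 against 113 and 110.0, and the anchoring fibril collagen COL7A1 at 3.06 and 2.75 against 6.31 and 7.58. Both fell, by 1.34 and 1.02 on the log2 scale.

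Fibrillar collagens were divided. COL5A1, which starts fibrils, was at 16.4 and 16.6 FPKM in shM3 against 43.0 and 47.8 in B5, a difference of -1.40 (SE 0.086, adjusted p = 7.58e-05). COL1A2 was at 0.580 and 0.696 against 3.11 and 3.05; it reached the 1 FPKM limit only through its B5 libraries, so that its call is no support, and 27 of the 28 lower members remain without it. Its partner chain COL1A1 was at 7.96 and 7.87 against 5.50 and 6.85 and did not pass the test (difference 0.32, adjusted p = 0.0875), nor did COL27A1.

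Every one of the 8 laminin chains tested changed, 7 down and 1 up, with a median of -0.88. LAMA3 was at 6.20 and 6.07 FPKM against 16.7 and 21.7, a difference of -1.49 (SE 0.20, adjusted p = 0.00172). LAMB3, its partner in the epithelial laminin, went the other way at 358 and 386 against 254 and 261, a 1.44-fold rise and a difference of 0.53 (SE 0.075, adjusted p = 0.00197). Neither chain had overlapping groups. LAMA5, the main alpha chain of adult basement membranes, was at 33.3 and 36.3 against 82.6 and 93.2 and fell by 1.31 on the log2 scale.

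Among integrins, 5 of 8 alpha and 4 of 6 beta chains fell, and 1 of each rose. Of the falls, those of ITGA3, ITGB8 and ITGB4 (adjusted p = 0.0351, 0.0367 and 0.0241) lost their calls in 6, 7 and 3 of the 8 fits that leave out 1 library, with adjusted p up to 0.149, 0.167 and 0.124; ITGB8 did so also with a pseudocount of 0.1 (0.0749), ITGA3 with equal medians (0.0661), and ITGB8 and ITGB4 without the filter on low values (0.0715 and 0.0613). ITGA5 was at 93.3 and 101 FPKM in shM3 against 59.2 and 62.1 in B5, a 1.60-fold rise and a difference of 0.67 (SE 0.073, adjusted p = 0.000647), so that the fibronectin receptor's alpha chain was higher while fibronectin was lower. Its partner ITGB1, the common beta chain, was at 222 and 221 against 311 and 332 and fell by 0.53 on the log2 scale. ITGB3, a beta chain of vitronectin receptors, rose from a low level, 3.83 and 3.67 against 1.99 and 2.08, but 51.6% of its exonic bases are shared with AC068234.1 on the same strand, and their fragments cannot be told apart here. The collagen receptor chains ITGA1, ITGA2 and ITGA10 fell by 1.31, 1.08 and 1.31 on the log2 scale. ITGAV and ITGAE did not pass the test.

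The pair COL4A1 and COL4A2 separated. COL4A1 was at 13.6 and 13.5 FPKM against 9.68 and 9.85, a difference of 0.44 (SE 0.09, adjusted p = 0.00922), with both shM3 libraries above both B5 libraries. COL4A2, started from the opposite strand of the region printed above, was at 26.7 and 30.2 against 27.5 and 31.6, groups that overlap (difference -0.05, adjusted p = 0.752). COL4A5 fell, at 2.17 and 2.33 against 4.73 and 4.79, while COL4A6 was under 1 FPKM in all 4 of these libraries.

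Lists of other matrix genes were read in the same way. In the collagen processing list 12 of 21 tested were lower and 0 higher (median -0.36), among them P3H1 and CRTAP, partners in proline hydroxylation of collagen, at means of 23.4 against 58.6 and 20.4 against 37.0 FPKM. Of 19 other matrix glycoproteins and proteoglycans 11 were lower and 0 higher (median -0.57). THBS1, an adhesive glycoprotein, had a mean of 35.2 against 174 and LTBP1, which tethers latent TGF-beta, of 6.41 against 22.3. Of 18 other matrix receptors 8 were lower and 2 higher, led by the laminin receptor BCAM (2.99 against 15.6) and the collagen uptake receptor MRC2 (6.50 against 30.6). Integrin adaptors moved both ways, with 8 of 45 higher and 9 lower and a median of 0.05. Their shares were near those of all genes, 17.9% higher and 19.9% lower, which are the background of the other lists too. FERMT2, which activates integrins, rose to 46.1 from 16.5, and TNS4 fell to 0.846 from 7.05.

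The count of members called lay between 28 and 31 when 1 library was left out. Marker lists of other cell types moved as well: the summed level of the 7 fibroblast markers, which include COL1A2, was 7.89 to 9.10 FPKM in B5 and 2.76 to 2.95 in shM3 with THY1 and DCN at 0, and that of 6 haematopoietic markers, led by LAPTM5 and with CD3E at 0 throughout, was 43.9 to 56.2 and 13.9 to 16.2. The 6 endothelial markers summed to 7.21 to 7.42 FPKM in B5 and 4.82 to 5.47 in shM3. The 9 luminal markers, mostly KRT8, KRT18 and KRT19, went the other way, at 724 to 892 and 1037 to 1073. The part of these lists in the results was not tested.

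**Figure D2:**
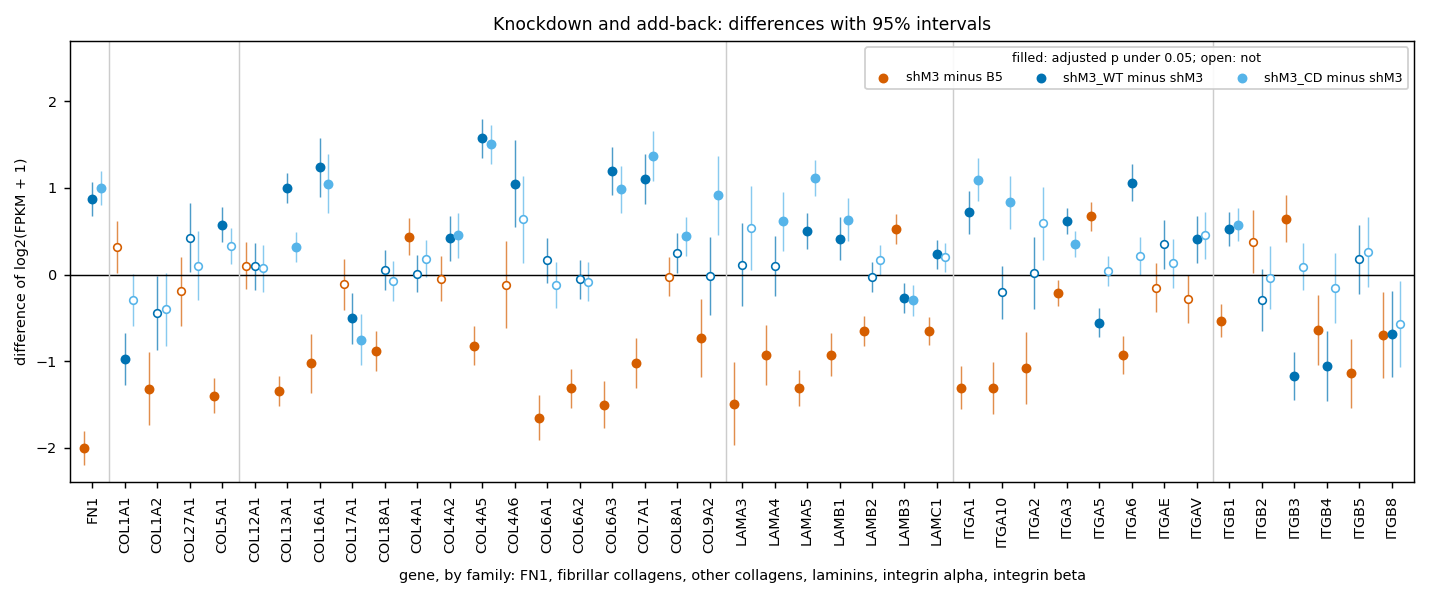
Differences of log2(FPKM + 1) with 95% intervals for 41 of the reported genes, shM3 minus B5, shM3_WT minus shM3 and shM3_CD minus shM3; filled points passed an adjusted p of 0.05. FN1 stands at -2.01 in the first and at 0.87 and 1.00 in the others, which share the shM3 libraries with it.

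Adding METTL3-WT to shM3 cells was followed by higher levels of 18 members and lower levels of 7, where 16.7% of all genes were higher and 22.7% lower. The members' median was 0.21 and that of all genes -0.08. The shM3 libraries enter this comparison and the one before it, so each is given by its own values. Over all genes this split depends on scaling: 2451 genes were higher and 3321 lower as deposited, but 2886 and 2690 after scaling to equal medians.

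COL4A5 had the highest rise on the log2 scale among members of at least 5 FPKM, at 8.65 and 8.73 FPKM against 2.17 and 2.33 in shM3, a 3.86-fold rise and a difference of 1.58 (SE 0.095, adjusted p = 6.73e-05). Its head-to-head neighbour COL4A6 also rose, at 1.84 and 1.61 against 0.338 and 0.287, and so in this comparison both genes of that pair passed. Neither gene's groups overlapped. COL7A1 was at 6.92 and 7.90 against 3.06 and 2.75, a difference of 1.105 (SE 0.12, adjusted p = 0.000637). ITGA6, a laminin receptor chain, was at 84.95 and 78.7 against 37.4 and 40.0, a difference of 1.06 (SE 0.092, adjusted p = 0.000232), and COL13A1 was at 89.7 and 85.6 against 43.1 and 43.6, a difference of 1.00 (SE 0.074, adjusted p = 0.000125). FN1 reached 79.3 and 76.9 FPKM, a 1.84-fold rise over shM3 with a difference of 0.87 (SE 0.083, adjusted p = 0.00036).

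Receptor chains, a fibrillar collagen and a hemidesmosome collagen were among the 7 that fell. ITGB4, the beta chain of hemidesmosomes, was at 29.4 and 21.5 FPKM against 61.5 and 46.4, a 2.12-fold fall and a difference of -1.06 (SE 0.17, adjusted p = 0.00328). COL1A1 was at 3.28 and 3.80 against 7.96 and 7.87, a difference of -0.98 (SE 0.13, adjusted p = 0.00128), and ITGA5 at 66.7 and 64.8 against 93.3 and 101, a difference of -0.56 (SE 0.073, adjusted p = 0.00129). In these 3 genes both shM3_WT libraries lay below both shM3 libraries. COL17A1, a hemidesmosome collagen, fell by 0.51 on the log2 scale (adjusted p = 0.0172), but its adjusted p was 0.0593 to 0.0979 when shM3 replicate 2, shM3_WT replicate 1 or shM3_WT replicate 2 was left out. LAMB3 fell by 0.27 on the log2 scale (adjusted p = 0.0265), and its adjusted p was 0.0561 to 0.153 without any 1 of the 4 libraries compared, 0.0594 without the filter on low values, 0.111 with equal medians and 0.129 with TMM factors (differences of -0.18 and -0.17 under the last 2).

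Adding METTL3-CD gave 17 higher and 2 lower members, where 6.82% of all genes were higher and 4.59% lower, with a median of 0.32 against 0.01 for all genes. COL4A5 was at 8.10 and 8.35 FPKM against 2.17 and 2.33, a difference of 1.51 (SE 0.095, adjusted p = 0.000471), and COL7A1 at 9.21 and 8.93 against 3.06 and 2.75, a difference of 1.37 (SE 0.12, adjusted p = 0.00132). LAMA5 was at 73.7 and 79.3 against 33.3 and 36.3, a difference of 1.11 (SE 0.089, adjusted p = 0.000909). The collagen receptor chain ITGA1 was at 5.63 and 5.79 against 2.07 and 2.202, a difference of 1.097 (SE 0.10, adjusted p = 0.00159). In these 4 genes the shM3_CD libraries lay above the shM3 libraries by more than the spread of either group. FN1 was at 84.3 and 86.7, a 2.02-fold rise and a difference of 1.00 (SE 0.083, adjusted p = 0.00108). COL17A1 fell by 0.75 on the log2 scale and LAMB3 by 0.30, with adjusted p of 0.0734 for COL17A1 without shM3 replicate 2 and 0.0769 without shM3_CD replicate 1, and of 0.0732 to 0.227 for LAMB3 when 1 library other than those of B5 was left out and 0.095 without the filter on low values. Fewer of the 19 members, and fewer of all genes, were called when any 1 library of the shM3 or shM3_CD groups was left out.

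Other matrix genes moved both ways in the add-back groups. Of 21 collagen processing genes 9 were higher and 3 lower in shM3_WT, and 9 higher and 0 lower in shM3_CD. Of 19 other matrix glycoproteins and proteoglycans 5 were higher and 8 lower in shM3_WT, and 7 higher and 1 lower in shM3_CD. Of 18 other matrix receptors 9 were higher and 2 lower, then 6 higher and 0 lower. Of 45 integrin adaptors 7 were higher and 12 lower in shM3_WT, and 2 higher and 3 lower in shM3_CD. Among all genes 16.7% were higher and 22.7% lower in shM3_WT, and 6.82% higher and 4.59% lower in shM3_CD. The glycoprotein TNC had a mean of 39.9 FPKM in shM3_WT and 19.3 in shM3_CD against 7.68 in shM3. CD44, the hyaluronan receptor, had a mean of 188 in shM3_WT against 26.8 in shM3. The summed haematopoietic markers were at 39.6 to 40.9 and 25.1 to 25.3 FPKM in these groups against 13.9 to 16.2 in shM3, and the fibroblast markers at 1.15 to 1.26 and 1.89 to 2.78 against 2.76 to 2.95; their part was not tested.

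The 2 add-backs were compared directly. In shM3_WT 4 members were higher and 9 lower than in shM3_CD, where 10.2% of all genes were higher and 15.7% lower; with equal medians the members' split was 6 and 7 and that of all genes moved from 1494 higher and 2291 lower to 2014 and 1501. ITGA6 was at 84.95 and 78.7 against 44.8 and 45.4, a difference of 0.84 (SE 0.092, adjusted p = 0.00161), and COL13A1 at 89.7 and 85.6 against 51.9 and 56.7, a difference of 0.68 (SE 0.074, adjusted p = 0.00161). Both were higher with METTL3-WT and without overlap. ITGA5 was at 66.7 and 64.8 against 98.6 and 101, a difference of -0.59 (SE 0.073, adjusted p = 0.00234), and LAMA5 at 50.4 and 49.2 against 73.7 and 79.3, a difference of -0.61 (SE 0.089, adjusted p = 0.00417). These 2 were lower with METTL3-WT. COL9A2, ITGB4 and COL1A1 were also lower, by 0.93, 0.90 and 0.68 on the log2 scale, but each lost its call without 1 library: COL9A2 without shM3_WT replicate 1 or shM3_CD replicate 2 (adjusted p = 0.0656 and 0.0776), COL1A1 without shM3_WT replicate 1 or shM3_CD replicate 1 (0.057 and 0.0612), and ITGB4 without shM3_WT replicate 2 or either shM3_CD library (0.0515 to 0.0559). ITGA3 was higher by 0.26 (adjusted p = 0.0238) and had an adjusted p of 0.05 to 0.12 when any 1 library of the shM3, shM3_WT or shM3_CD groups was left out. FN1 differed by -0.13 and did not pass (adjusted p = 0.298). Fewer of the 13 members, and fewer of all genes, were called when any 1 library of the shM3_WT or shM3_CD groups was left out.

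Against B5 cells, more members were lower than higher in both add-back groups. In shM3_WT 23 were lower and 7 higher (18.2% and 11.8% of all genes; over all genes 1727 were higher and 2659 lower as deposited, and 2613 and 2013 with equal medians). In shM3_CD 18 were lower, 6 higher and 18 not called (15.2% and 14.8% of all genes). Without COL1A2, which passed the filter only through B5, the lower members were 22 and 17. COL6A1 and COL6A2 were lower in both, and COL6A3 was lower in shM3_CD by 0.52 on the log2 scale (adjusted p = 0.0157) but did not pass in shM3_WT (-0.31, adjusted p = 0.0855). COL6A1 was at 47.5 and 47.8 FPKM in shM3_WT and 38.9 and 39.1 in shM3_CD against 121 and 151 in B5, differences of -1.49 (SE 0.11, adjusted p = 0.000278) and -1.77 (SE 0.11, adjusted p = 0.000188). COL6A2 was at 9.63 and 8.95 in shM3_CD against 24.8 and 27.4, a difference of -1.40 (SE 0.095, adjusted p = 0.000218). COL4A5 was above B5 in both, by 0.75 and 0.68 (adjusted p = 0.00185 and 0.00281). ITGB4 was below B5 in shM3_WT by 1.70 on the log2 scale, and ITGA5 was above B5 in shM3_CD by 0.71 (adjusted p = 0.000867). FN1 remained below B5 in both, by 1.14 and 1.01 on the log2 scale (adjusted p = 0.000259 and 0.000425).

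**Figure D3:**
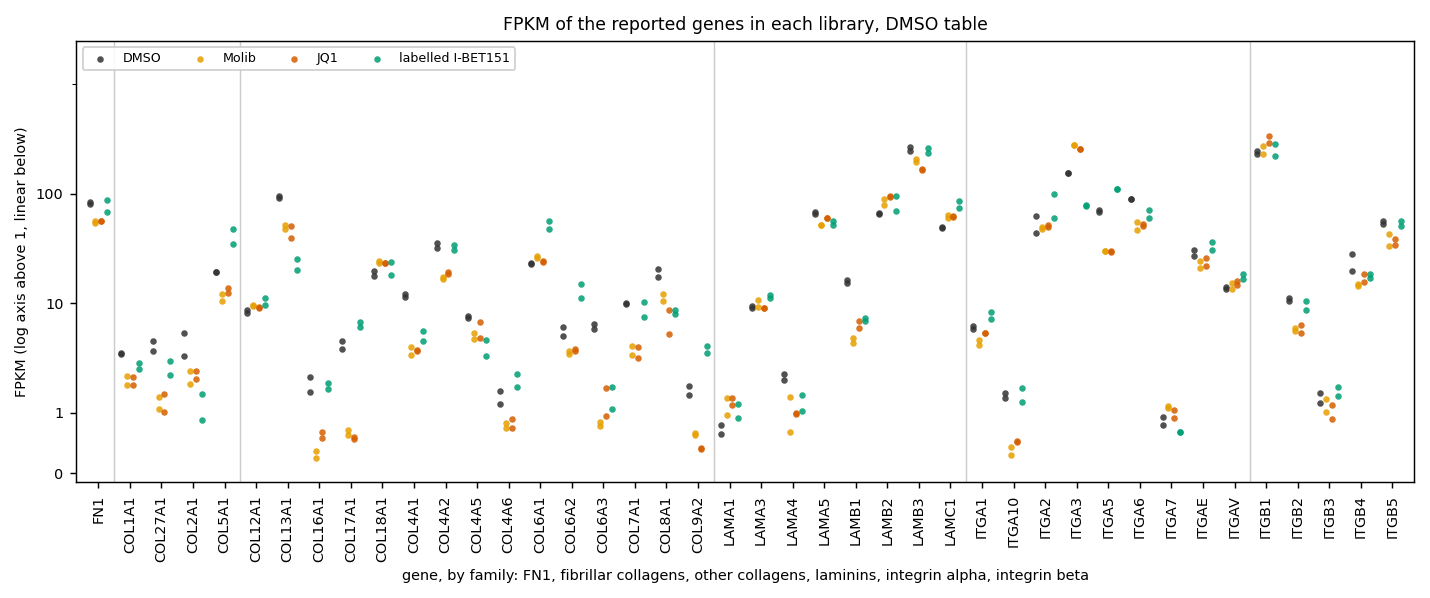
FPKM of 42 of the reported genes in each of the 8 libraries of the DMSO table, by family, on an axis that is logarithmic above 1 and linear below it. ITGA3 stands at 155 FPKM in both DMSO libraries, between 255 and 279 in JQ1 and Molib and at 77.8 and 79.5 in the group labelled I-BET151, while FN1 ranges only from 54.5 to 88.3.

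Collagens fell under JQ1. Of 43 members 23 were lower and 3 higher than in DMSO, where 20.6% of all 14936 genes were lower and 14.5% higher, with a median of -0.53 against -0.04 for all genes. All 4 fibrillar collagens tested and 9 of 15 other collagens were lower and none was higher; of the fibrillar calls COL1A1, COL2A1 and COL5A1 were lost under 3, 5 and 6 of the 8 fits that leave out 1 library. COL2A1 and COL5A1 were also lost without the filter on low values, with equal medians and with TMM factors. COL2A1 was lost with a pseudocount of 0.1 as well. Laminin chains gave 4 lower and 2 higher of 9, alpha integrins 3 lower and 1 higher of 9, and beta integrins 2 lower of 5.

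COL6A3 was at 0.936 and 1.68 FPKM in JQ1 against 6.42 and 5.82 in DMSO, a 4.68-fold fall and a difference of -1.64 (SE 0.20, adjusted p = 0.00119). COL6A1, another type VI chain, was at 23.5 and 24.3 against 22.7 and 23.5 (adjusted p = 0.745). COL6A2 was at 3.84 and 3.67 against 5.02 and 5.998, below DMSO in both libraries (-0.45, adjusted p = 0.0604), and passed without either or both libraries labelled I-BET151 (0.0240 to 0.0265). COL4A1 was at 3.66 and 3.73 against 11.3 and 12.2, a 3.17-fold fall and a difference of -1.44 (SE 0.14, adjusted p = 0.000384). Here its neighbour COL4A2 fell as well, at 19.1 and 18.6 against 31.6 and 35.8, a difference of -0.80 (SE 0.11, adjusted p = 0.00167). COL7A1 was at 3.98 and 3.16 against 10.1 and 9.87, a difference of -1.27 (SE 0.17, adjusted p = 0.00186), and COL8A1, a short-chain collagen, at 5.17 and 8.58 against 20.3 and 17.2, a difference of -1.36 (SE 0.21, adjusted p = 0.00288). In all of these that fell, both JQ1 libraries lay below both DMSO libraries. COL17A1 had the deepest fall on the log2 scale, 1.72, at 0.565 and 0.590 against 3.85 and 4.53 FPKM.

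ITGA3, a laminin receptor chain, and ITGA5, the fibronectin receptor chain, moved in opposite directions, while ITGA6, another laminin receptor chain, fell like ITGA5. ITGA3 was at 255 and 256 FPKM in JQ1 against 155 and 155 in DMSO, a 1.65-fold rise and a difference of 0.72 (SE 0.079, adjusted p = 0.000763). ITGA5 was at 30.1 and 29.2 against 70.5 and 68.4, a 2.34-fold fall and a difference of -1.20 (SE 0.083, adjusted p = 0.000133). The 2 libraries of a group were nearly equal for both genes. ITGB1, the partner of both, was at 335 and 292 against 228 and 246 and did not pass (0.40, adjusted p = 0.0710), but it passed with equal medians (0.45, adjusted p = 0.0451) and without either or both libraries labelled I-BET151 (0.0270 to 0.0273). FN1 fell as ITGA5 did, at 56.7 and 56.2 against 83.5 and 79.8, a 1.45-fold fall and a difference of -0.53 (SE 0.13, adjusted p = 0.0175), although its adjusted p was 0.0667 to 0.0902 when any 1 of the 4 libraries was left out. Among laminins LAMB1 fell at 6.89 and 5.86 against 16.2 and 15.3. LAMB2 and LAMC1 rose by 0.50 and 0.33 (adjusted p = 0.0368 and 0.0430), with adjusted p of 0.0524 to 0.139 and 0.0693 to 0.155 without any 1 library of the DMSO, JQ1 or Molib groups, and 0.0772 and 0.0587 without the filter on low values. Fewer of the 26 members, and fewer of all genes, were called when any 1 library of the DMSO or JQ1 groups was left out.

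In Molib 27 members were lower and 2 higher than in DMSO, where 20.5% of all genes were lower and 14.8% higher, with a median of -0.55 against -0.03. Lower calls were 4 of 4 fibrillar and 10 of 15 other collagens, 5 of 9 laminin chains, 4 of 9 alpha and 3 of 5 beta integrins. Higher calls were 1 laminin chain and 1 alpha integrin. Of the fibrillar calls COL1A1, COL2A1 and COL5A1 were lost in some of the fits that leave out 1 library. COL2A1 was also lost with a pseudocount of 0.1, without the filter on low values and with a replicate block. COL6A3 was at 0.786 and 0.851 FPKM against 6.42 and 5.82, a difference of -1.97 (SE 0.20, adjusted p = 0.000521). LAMB1, a chain of widespread laminins, was at 4.83 and 4.29 against 16.2 and 15.3, a 3.45-fold fall and a difference of -1.59 (SE 0.12, adjusted p = 0.000166). COL4A1 was at 3.95 and 3.37, a difference of -1.45 (SE 0.14, adjusted p = 0.000361), and COL7A1 at 3.33 and 4.04, a difference of -1.23 (SE 0.17, adjusted p = 0.00194). All 4 genes were below DMSO in both Molib libraries. ITGA3 was at 276 and 279, a 1.79-fold rise and a difference of 0.83 (SE 0.079, adjusted p = 0.000381), and ITGA5 at 29.8 and 29.8, a 2.33-fold fall and a difference of -1.19 (SE 0.083, adjusted p = 0.000117). LAMC1 rose by 0.33 (adjusted p = 0.0428), and lost its call without any 1 library of the DMSO, JQ1 or Molib groups (0.0762 to 0.186) and without the filter on low values (0.0585). FN1 was at 54.5 and 56.2, a difference of -0.55 (SE 0.13, adjusted p = 0.0140), with adjusted p of 0.0573 to 0.0777 without 1 of the 4 libraries. Fewer of the 29 members, and fewer of all genes, were called when any 1 library of the DMSO or Molib groups was left out. JQ1 and Molib share the DMSO libraries, so a likeness of these differences is not independent evidence.

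Set against each other, Molib and JQ1 differed in 0 members and 0% of all genes. At an unadjusted p under 0.05 there were 1227 genes, with LAMB1, COL8A1 and LAMB3 among them (adjusted p = 0.528, 0.528 and 0.558). The 95% intervals of Molib minus JQ1 were -0.33 to 0.27 for FN1, -0.07 to 0.30 for ITGA3, -0.19 to 0.20 for ITGA5, -0.33 to 0.30 for COL4A1 and -0.37 to 0.45 for COL7A1, so differences within these bounds could not be told from none.

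The libraries labelled I-BET151 showed another pattern. In them 8 members were higher and 10 lower than in DMSO, where 13.9% of all genes were higher and 14.1% lower, and the members' median was -0.03. The members' share of lower genes was thus nearer to the background than under JQ1 or Molib. COL13A1 had the deepest fall on the log2 scale, at 25.5 and 19.99 FPKM against 92.1 and 95.9 in DMSO, a 4.13-fold fall and a difference of -2.01 (SE 0.16, adjusted p = 0.000304). COL6A3 fell, at 1.73 and 1.07 against 6.42 and 5.82, a 4.38-fold fall and a difference of -1.58 (SE 0.20, adjusted p = 0.00193), whereas its partner chains rose. COL6A1 was at 55.9 and 47.4 against 22.7 and 23.5, a difference of 1.12 (SE 0.11, adjusted p = 0.000651), and COL6A2 at 14.8 and 11.04 against 5.02 and 5.998, a difference of 1.09 (SE 0.16, adjusted p = 0.00303). Neither overlapped with DMSO, though the 2 libraries of the group labelled I-BET151 were further apart than those of DMSO. COL5A1 was at 47.7 and 34.7 against 19.3 and 19.1, a difference of 1.05 (SE 0.16, adjusted p = 0.00394). COL4A1 fell, at 5.60 and 4.47 with a difference of -1.08 (SE 0.14, adjusted p = 0.00181), and COL4A2 at 34.2 and 30.4 overlapped the DMSO libraries at 31.6 and 35.8. LAMB1 fell by 1.05 on the log2 scale and COL8A1 by 1.08, the latter with an adjusted p of 0.0627 without DMSO replicate 1.

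ITGA5 and ITGA3 each moved against their direction under JQ1, whereas ITGA6 fell in both groups. The ITGA6 call in the group labelled I-BET151 was lost without the filter on low values and with a replicate block. It was also lost in some of the fits that leave out 1 library. ITGA5 was at 111 and 111 FPKM in the group labelled I-BET151, a 1.60-fold rise over DMSO and a difference of 0.67 (SE 0.083, adjusted p = 0.00175). ITGA3 was at 77.8 and 79.5 and fell by 0.97 on the log2 scale (adjusted p = 0.000358). LAMC1 was at 73.4 and 86.2, a difference of 0.69 (SE 0.10, adjusted p = 0.00355). FN1 was at 68.1 and 88.3 against 83.5 and 79.8, overlapping groups with an adjusted p of 0.703.

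Tested directly, the group labelled I-BET151 had 21 members higher and 2 lower than JQ1 (24.6% and 20.1% of all genes) and 22 higher and 2 lower than Molib (23.6% and 19.9%). COL17A1 was at 6.68 and 6.001 FPKM against 0.565 and 0.590 in JQ1 and 0.710 and 0.629 in Molib, differences of 2.22 (SE 0.13, adjusted p = 3.65e-05) and 2.14 (SE 0.13, adjusted p = 4.21e-05). ITGA5 was higher by 1.87 and 1.86, and ITGA3 lower by 1.69 and 1.81 on the log2 scale (adjusted p = 1.39e-05, 1.47e-05, 1.59e-05 and 1.27e-05). COL13A1 was lower by 0.96 and 1.11 on that scale. FN1 was higher by 0.45 and 0.48 (adjusted p = 0.0238 and 0.0193), and lost this call without either JQ1 library (0.0909 and 0.0974) or either Molib library (0.0885 and 0.0692); without I-BET151 replicate 2 the differences were 0.27 and 0.29 (adjusted p = 0.0361 and 0.0274). With the libraries labelled I-BET151 left out of the fit, 29 members were called for JQ1, 31 for Molib and 0 between Molib and JQ1, and 41.9% of all genes were called for JQ1 and 41.8% for Molib.

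**Figure D4:**
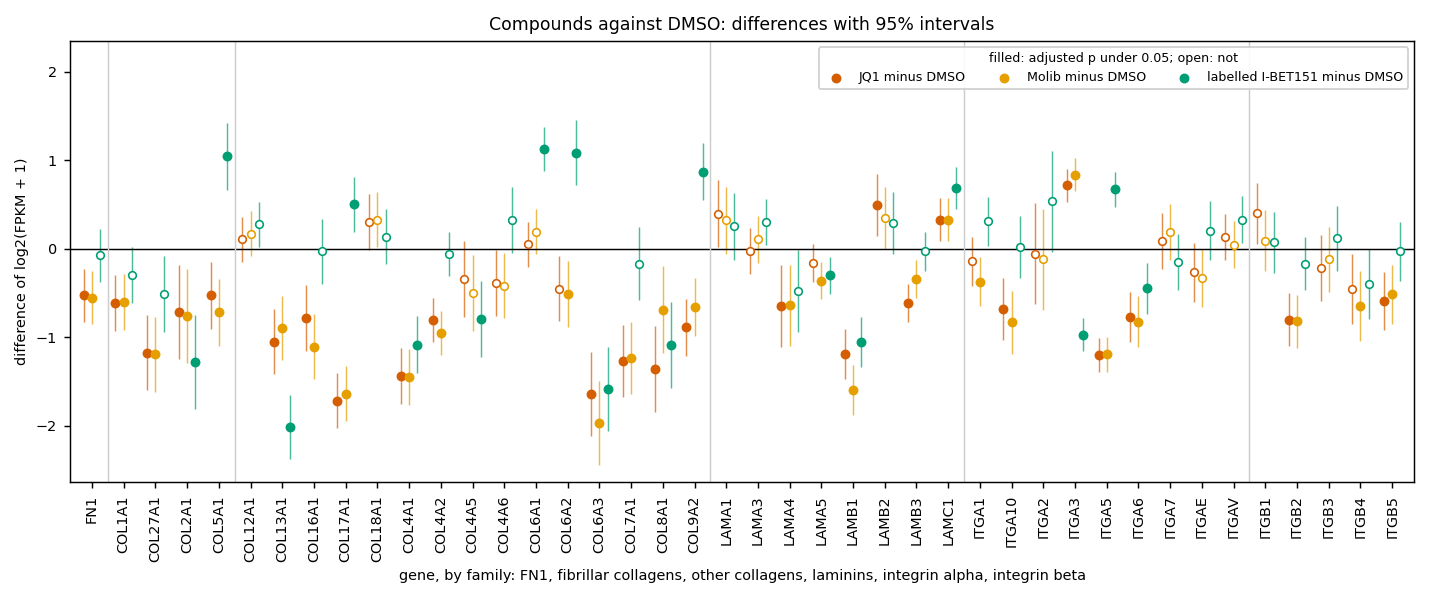
Differences of log2(FPKM + 1) from DMSO with 95% intervals for 42 of the reported genes under JQ1, Molib and the group labelled I-BET151, which share the DMSO libraries; filled points passed an adjusted p of 0.05. ITGA3 stands at 0.72, 0.83 and -0.97 and ITGA5 at -1.20, -1.19 and 0.67 in that order.

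Beyond the members, JQ1 lowered 8 and raised 2 of 23 collagen processing genes and lowered 8 and raised 6 of 22 other glycoproteins. It lowered 7 and raised 5 of 18 other receptors, and lowered 12 and raised 6 of 45 integrin adaptors. Under JQ1 20.6% of all genes were lower and 14.5% higher. P4HA1, a collagen prolyl hydroxylase, had a mean of 55.3 FPKM against 24.9, and FKBP10, a collagen chaperone, of 5.33 against 13.8. TNC had 12.6 against 40.9, and the microfibril protein MFAP2 1.05 against 14.5. TNS3, an adaptor of integrin tails, had 3.26 against 21.3, and the actin linker FLNA 665 against 345. Molib lowered 9 and raised 4 processing genes and lowered 13 and raised 7 adaptors, where 20.5% of all genes were lower and 14.8% higher. In the group labelled I-BET151 5 processing genes were lower and 5 higher, where 14.1% of all genes were lower and 13.9% higher. In that group SDC4, a syndecan that acts with ITGA5 and ITGB1 on fibronectin, had a mean of 266 against 91.0. The luminal marker list (9 genes, mostly KRT8, KRT18 and KRT19) summed to 598 to 601 FPKM in DMSO, 1630 to 1642 in JQ1, 1545 to 1598 in Molib and 737 to 741 in the group labelled I-BET151, and the haematopoietic list to 33.6 to 35.8, 14.6 to 15.4, 17.0 to 17.8 and 34.1 to 39.3. Their part in the results was not tested.

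The CTRL table gave less certain values, because its CTRL and JQ1 libraries differ within their groups. In JQ1 against CTRL 0 of 40 members and 0% of all 13261 genes passed limma's test at an adjusted p under 0.05; 2048 genes and 15 members had an unadjusted p under 0.05, and 1, 3 or 4 members, each lower in JQ1, passed without CTRL replicate 1, CTRL replicate 2 or JQ1 replicate 1, where 2.19%, 2.87% and 0.671% of all genes were lower. FN1 was at 29.1 and 43.1 FPKM in JQ1 against 177 and 164 in CTRL, a difference of -2.23 (SE 0.25, adjusted p = 0.0805). The 2 groups were far apart for FN1 although the test was not passed, and without JQ1 replicate 1 the adjusted p was 0.0496. ITGA5 was at 6.53 and 24.1 against 90.8 and 50.6 and ITGA3 at 179 and 108 against 119 and 154, where only the ITGA3 groups overlap. The number of members listed at 0 was 8 and 6 in the CTRL libraries, 7 and 11 in the JQ1 libraries and 0 in both MW_JQ1 libraries.

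MW_JQ1 cells had 13 members higher and 0 lower than JQ1 cells, where 13.5% of all genes were higher and 1.62% lower. All genes together had a median difference of 0.75 here, 0.15 after scaling to equal medians and 0.48 with TMM factors, and the split of all genes moved from 1795 higher and 215 lower to 1371 and 354 with equal medians. LAMB3 was at 294 and 324 FPKM in MW_JQ1 against 47.2 and 42.4 in JQ1, a 6.90-fold rise and a difference of 2.76 (SE 0.18, adjusted p = 0.000892). LAMA5 was at 104 and 123 against 28.2 and 13.8, a difference of 2.45 (SE 0.39, adjusted p = 0.0158), and FN1 at 151 and 164 against 29.1 and 43.1, a difference of 2.12 (SE 0.25, adjusted p = 0.00501). All 3 were higher without overlap. COL4A1 was at 8.14 and 11.01 and COL9A2 at 6.99 and 9.76 in MW_JQ1, and both were listed at 0 in both JQ1 libraries, so no fold is given. COL9A2, COL16A1, ITGA7 and LAMA4 reached 1 FPKM in this table only in MW_JQ1 libraries, the group where they are high, so their calls are no support. Without these 4, 9 of the 13 remain. Also called were, among others, COL7A1, COL13A1, COL16A1, COL17A1, ITGA3, ITGA7 and LAMA4, of which COL16A1, COL17A1 and ITGA7 were also listed at 0 in both JQ1 libraries.

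Several of these calls rest on single libraries or on the scaling. Without MW_JQ1 replicate 1 or 2 the count was 6 each, and FN1 (0.0639 and 0.0739), LAMA5 (0.144 and 0.177), and COL4A1 (0.111 and 0.126) lost theirs; COL4A1 did so also without JQ1 replicate 2 (0.0627). Fewer of all genes were called without MW_JQ1 replicate 1 or 2 as well. With equal medians FN1 differed by 1.37 with an adjusted p of 0.12, and COL7A1, COL13A1 and ITGA3 were not called either. The haematopoietic markers listed in this table (3 of 6) summed to 29.5 to 42.0 FPKM in CTRL, 0 to 3.18 in JQ1 and 33.3 to 35.1 in MW_JQ1. In the same order the luminal markers (5 of 9) summed to 558 to 584, 1188 to 1301 and 1504 to 1562. The endothelial markers (3 of 6) summed to 7.13 to 7.66, 0.537 to 1.64 and 5.68 to 6.13. The fibroblast markers (2 of 7) summed to 1.83 to 5.00, 0 to 6.98 and 3.19 to 3.44. The part of these lists was not tested.

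**Figure D5:**
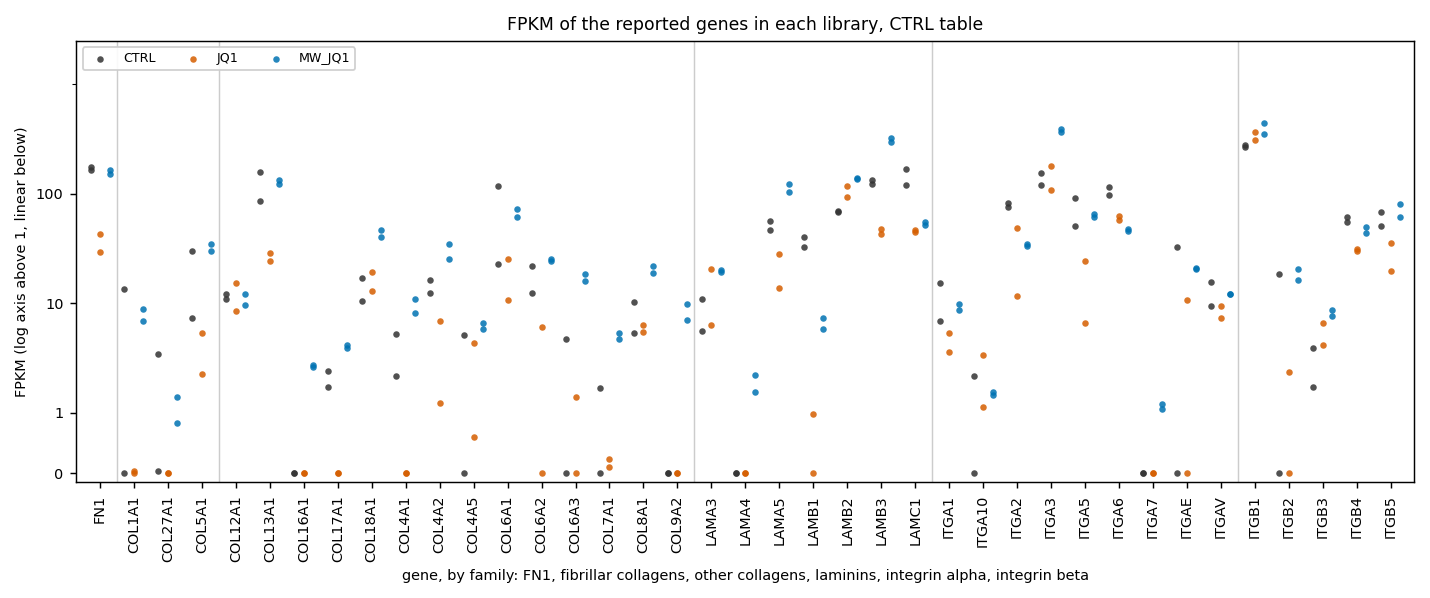
FPKM of 39 of the reported genes in each of the 6 libraries of the CTRL table, by family, on an axis that is logarithmic above 1 and linear below it. The CTRL and JQ1 libraries of a gene are often far apart, with 6 to 11 genes listed at 0 per library, while the 2 MW_JQ1 libraries lie close together and none of their genes is listed at 0.

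JQ1 was set against DMSO and against CTRL cells in 2 tables that share no libraries, and 40 members were reported in both. Both JQ1 libraries lay below both DMSO libraries for 29 of them, where 40.1% of all genes did so, and below both CTRL libraries for 20, where 19% of all genes did so. The 2 lists shared 17 genes, 17 of the 29 and 17 of the 20; of all 12604 genes kept in both tables, 12.1% were lower in both, which is 29.4% of those lower in the DMSO table and 62.8% of those lower in the CTRL table. The 17 include FN1, ITGA5, ITGA6, LAMB1, LAMB3, COL4A1, COL4A2, COL5A1, COL13A1 and COL17A1. Both JQ1 libraries lay above both control libraries for 8 members in the DMSO table (33.7% of all genes) and 3 in the CTRL table (14.7% of all genes). ITGB1 and LAMB2 were in both lists. Of all 12604 genes, 8.31% were higher in both tables. That is 24.2% of those higher in the DMSO table and 56.2% of those higher in the CTRL table. For 3 members the order was opposite in the 2 tables, and the share of all genes with opposite orders was not counted.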

How the data were processed

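RNA-seq of 22 MDA-MB-231 libraries was used as deposited. Per the submitters' processing notes, the tools were Cufflinks 2.2.1, HISAT2 2.1.0 and CASAVA 1.4 and the build hg38; their options, annotation and strandedness were not given in the sources used here. Values in the 3 tables are FPKM made by the authors; FPKM stands in the name of 1, and for the other 2 the unit was inferred from the values. The CTRL table also holds columns of the authors' own test (log2 fold changes, standard errors, a mean signal, and p-values before and after adjustment, per the file headers), which were not used. No per-sample column was left unused (0).

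A gene entered a table's fit if 2 or more of its libraries reached 1 FPKM (14638, 14936 and 13261 genes). A single fit per table covered all its groups on log2(FPKM + 1) with limma 3.58.1 in R 4.3.3 (lmFit, contrasts, eBayes with trend), and p-values were adjusted by Benjamini-Hochberg over all genes kept, in 14 comparisons within tables. The design foresaw FPKM, and the scripts were tested on simulated data. Summaries used Python 3.11.15 with pandas 2.3.3 and matplotlib 3.10.9, positions GENCODE 29. Members, families, pathway lists and marker lists were chosen with earlier results of these data known. Members given with all values were FN1 and up to 5 of the highest rises and 5 of the deepest falls per comparison (2 and 2 against B5 for the add-backs and between compounds), among those called, without overlap of groups and with a higher group averaging 5 FPKM or more; up to 2 genes per pathway list were those with the smallest adjusted p. Other members named, and the intervals of Molib minus JQ1, were chosen after their values were seen.

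Alternatives were a pseudocount of 0.1, no filter on low values, scaling to equal medians, TMM factors computed by hand (trims of 30% and 5%), a replicate block and leaving out each library; the fits without the libraries labelled I-BET151, on the compared groups alone and with a crossed block were chosen after seeing the data. Depth is known only from steps between low values, so counting error was not estimated apart from the spread between libraries. The values of 1 member are not reported here or drawn, though it stays in every fit and count.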

Additional observations from a re-analysis of the deposited data

Results flagged for a closer look

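For 3 members the order was reversed: they moved one way under JQ1 in the CTRL table and the other way in the DMSO table, in every library of the groups compared. The difference between the tables was not tested for any of them. How many of all genes were reversed in this way was not counted, so nothing here sets these 3 members apart. ITGAV, the alpha chain of vitronectin receptors, differed by -0.51 (JQ1 minus CTRL, log2 scale) and by 0.14 (JQ1 minus DMSO). ITGB3, which shares exons with another gene, differed by 0.78 and -0.22. LAMC1, the common laminin gamma chain, differed by -1.61 and 0.33. None of the 3 passed limma's test in the CTRL table, and of the values in the DMSO table only that of LAMC1 did.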

How the results depend on the processing

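Of 92 results for members chosen by the rule for full values, 70 kept their direction and their side of the threshold under every alternative run, and 20 lost a call under 1 or more. The only reversal was FN1 in the group labelled I-BET151 against DMSO, at 0.11 (adjusted p = 0.32) without I-BET151 replicate 1 in place of -0.07, with a range of -0.26 to 0.11 over the fits that leave out 1 library; the cause was not tested. FN1 in JQ1 against CTRL passed without JQ1 replicate 1 (-1.96, adjusted p = 0.0496). Under the pseudocount, filter and scaling alternatives every count of members called stayed within 1.5 times its value. Leaving out 1 library, which also leaves fewer samples, gave 28 to 31 for shM3 against B5, 18 to 25 for shM3_WT and 7 to 21 for shM3_CD against shM3, 8 to 14 between the add-backs, and 22 to 28 and 18 to 25 for shM3_WT and shM3_CD against B5. It gave 17 to 29 for JQ1, 16 to 31 for Molib and 13 to 18 for the group labelled I-BET151 against DMSO, 0 for Molib against JQ1, 16 to 25 and 17 to 24 for the group labelled I-BET151 against JQ1 and Molib, 0 to 4 for JQ1 against CTRL and 6 to 17 for MW_JQ1 against JQ1. A lone library left in a group was assumed to vary like the other groups.

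Same-numbered libraries deviated together at r of -0.123 to 0.042, so the numbers do not pair the samples. With a replicate block the counts were 31 for shM3 against B5, 24 and 17 for the add-backs against shM3, 13 between them, 29 and 24 for them against B5, 22 for Molib, 15 for the group labelled I-BET151 against DMSO and 21 for it against Molib, 0 for JQ1 against CTRL and 11 for MW_JQ1 against JQ1. JQ1 of the DMSO table carries no numbers and could not be blocked. Crossed numbers for the group labelled I-BET151 against DMSO gave 7 higher and 8 lower. Members near 1 FPKM, such as COL4A6, COL2A1 and ITGA10, are limited by depth. For the CTRL table no depth was estimated, and why members were listed at 0 there was not tested.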
